A study of Bos indicus x Bos taurus with 17 samples.

Results

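The 8 troponin genes of cattle that encode the calcium switch of striated muscle were described in fetal skeletal muscle, with fetal liver as the contrast. They were found by symbol in the count tables as TNNC1, TNNC2, TNNI1, TNNI2, TNNI3, TNNT1, TNNT2 and TNNT3, and make up 8 of the 21048 genes listed. All fetuses were F1 crosses of Nelore and Holstein cattle, Bos indicus x Bos taurus, collected at about day 105 of gestation and labelled healthy. The control group held 2 fetuses conceived by artificial insemination (Control-AI 2 and 4). The second group held 4 fetuses conceived by assisted reproductive technology, produced in vitro (ART-Normal 1 to 4). ART-Normal 1 to 3 are described by the study as similar in weight to the controls, while ART-Normal 4 is a healthy ART fetus by its labels, with no weight given. RNA-seq libraries of skeletal muscle and of liver were available for each of the 6 fetuses, and the labels do not say which muscle was taken.

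Troponin sits along the thin filament of the sarcomere as a complex of 3 subunits. Troponin C binds calcium, troponin I holds back the interaction of actin and myosin at rest, and troponin T ties the complex to tropomyosin. Slow fibres use TNNC1, TNNI1 and TNNT1, fast fibres use TNNC2, TNNI2 and TNNT3, and the heart uses TNNC1, TNNI3 and TNNT2. In mammals the cardiac troponin T gene TNNT2 is also used by immature skeletal muscle, and the mix of slow and fast isoforms changes as fibres mature. Liver parenchyma has no sarcomeres.

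Total counts ranged from 12433300 to 23578362 in muscle and from 18454088 to 43339598 in liver, and Control-AI 2 had the fewest in each tissue. Levels are given as CPM, the counts scaled to library size after TMM normalization within a tissue. Control-AI 2 stood apart from the other fetuses in both tissues. On the first principal component, with 52.6% of the variance in muscle and 51.0% in liver, it lay at -43.7 and -44.2, and every other library lay at 2.16 or above. Results that rest on it are therefore given with and without it.

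None of the 8 genes overlapped another listed gene on either strand of ARS-UCD1.2. The 2 troponin C genes lie alone: TNNC1 (gene 509486) on the plus strand of chromosome 22 from 48434858 to 48437752, and TNNC2 (gene 615428) on the minus strand of chromosome 13 from 74596932 to 74599856. The troponin I and T genes lie in 3 pairs, each on 1 strand. On chromosome 16, TNNI1 (gene 100301375, 80895145 to 80907893, plus strand) lies 23723 bp from TNNT2 (gene 286816, 80931617 to 80943043), with LAD1 between them. On chromosome 18, TNNI3 (gene 511094, 62269281 to 62273058, plus strand) lies 1565 bp from TNNT1 (gene 282095, 62274624 to 62285833), with no gene between. On chromosome 29, TNNT3 (gene 282096, 49579057 to 49594751, minus strand) lies 50990 bp from TNNI2 (gene 506434, 49645742 to 49648340), with PRR33 and LSP1 between. The pairs join a slow with a cardiac gene, a cardiac with a slow gene, and a fast with a fast gene.

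**Figure D1:**
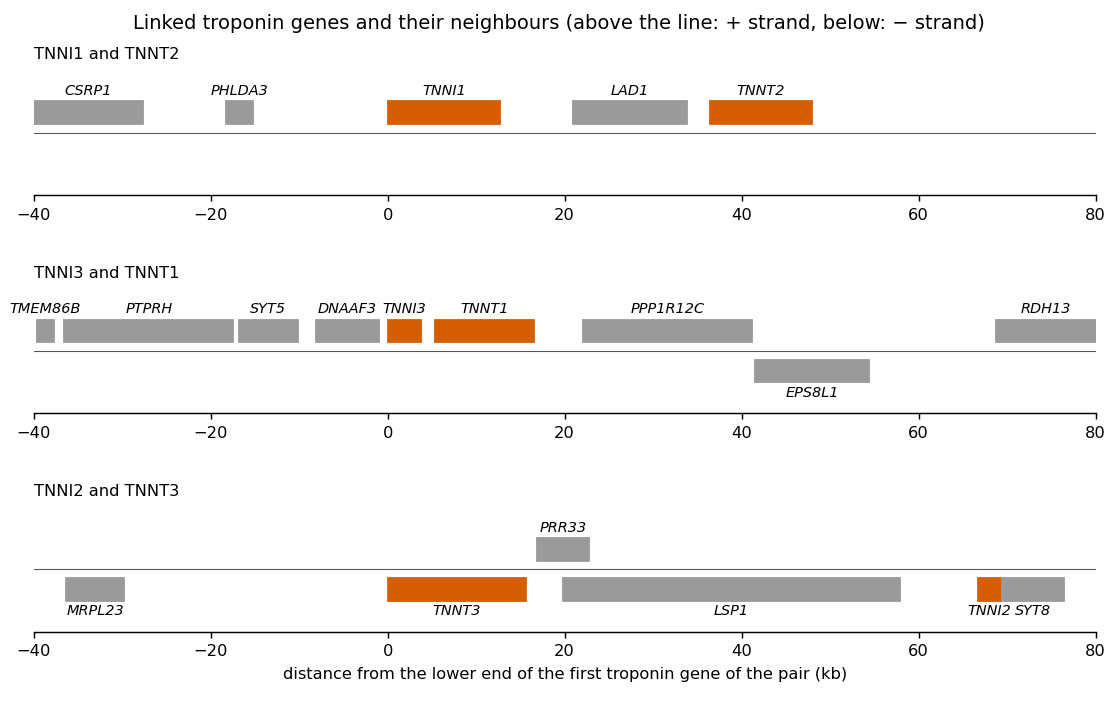
Gene spans around the 3 linked pairs of troponin genes, as distance in kb from the lower end of the first troponin gene of each pair, with plus-strand genes above and minus-strand genes below each line; troponin genes are orange and other listed genes grey. TNNI3 and TNNT1 are 1565 bp apart with nothing between, while LAD1 lies between TNNI1 and TNNT2 and PRR33 and LSP1 lie between TNNT3 and TNNI2.

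Some close neighbours of abundant troponin genes had few reads in muscle. LAD1, an anchoring protein gene of epithelia, had 1 to 8 counts per muscle library, between TNNI1 with 3937 to 8430 and TNNT2 with 1836 to 4118. SYT8, 162 bp from TNNI2, had 1 to 9 counts, against 7514 to 21573 for TNNI2. DNAAF3, a gene for the assembly of ciliary dynein that lies 1011 bp from TNNI3, had 11 to 27 counts, and TNNI3 itself had 15 to 48. PRR33 had 279 counts in Control-AI 2 muscle and 4 to 16 in the other 5 muscle libraries. It lies 1175 bp from TNNT3 on the opposite strand and overlaps LSP1, so its reads and those of LSP1 may be mixed, but it shares no base with TNNT3.

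The slow genes TNNC1 and TNNT1 were the steadiest of the family in muscle. TNNC1, slow and cardiac troponin C, was at 552 and 642 CPM for Control-AI 2 and 4, and at 593, 589, 519 and 625 for ART-Normal 1 to 4. TNNT1, slow troponin T, was at 335 and 330 CPM for the controls and at 320, 385, 324 and 312 for ART-Normal 1 to 4. Their highest and lowest libraries differed by 1.24-fold and 1.23-fold, and their coefficients of variation over the 6 libraries were 7.75% and 7.80%. TNNI1, slow troponin I, varied more, with 313 and 345 CPM for the controls and 284, 438, 384 and 384 for ART-Normal 1 to 4, a coefficient of variation of 15.5%. The groups overlapped for all 3 slow genes.

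Among the 7 genes above 100 CPM, the highest and lowest libraries lay farthest apart for the fast genes TNNI2, at 1.84-fold, and TNNT3, at 1.73-fold, while fast TNNC2, at 1.47-fold, was below slow TNNI1, at 1.54-fold. TNNC2, fast troponin C, was at 1161 and 1336 CPM for the controls and at 1210, 1593, 1529 and 1706 for ART-Normal 1 to 4. TNNI2, fast troponin I, had 597 and 851 CPM for the controls and 595, 934, 983 and 1097 for ART-Normal 1 to 4, a coefficient of variation of 24.6%. TNNT3, fast troponin T, was at 2109 and 1738 CPM for the controls and at 1362, 1913, 2095 and 2358 for ART-Normal 1 to 4. ART-Normal 1 was the lowest of the 6 libraries for TNNI2 and TNNT3, and ART-Normal 4 was the highest for all 3 fast genes. The groups overlapped for each of them.

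The cardiac pair was split. TNNT2, cardiac troponin T, was at 146 and 175 CPM for the controls and at 151, 191, 173 and 200.5 for ART-Normal 1 to 4, so it was present in every muscle library. TNNI3, cardiac troponin I, had 25 and 48 counts for the controls and 15, 19, 39 and 40 for ART-Normal 1 to 4. On the CPM scale this was 1.98 and 2.04 for the controls and 0.632, 1.12, 1.78 and 2.08 for ART-Normal, below the 5 CPM needed for testing. TNNI3 lies beside TNNT1, whose counts in the same libraries were 4218 to 7790.

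Per kb of gene span, the mean muscle level was highest for TNNC2 (486 CPM per kb), then TNNI2 (324), TNNC1 (203), TNNT3 (123), TNNT1 (29.8), TNNI1 (28.1), TNNT2 (15.1) and TNNI3 (0.425). The neighbours TNNT1 and TNNI1 differed by less than the spread of TNNI1 between libraries. Spans include introns and exon lengths were not used here, so this order holds per length of gene and is not one of mRNA molecules. Together the 8 genes took 0.458% to 0.665% of all counted reads in a muscle library, lowest in ART-Normal 1 and highest in ART-Normal 4.

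**Figure D2:**
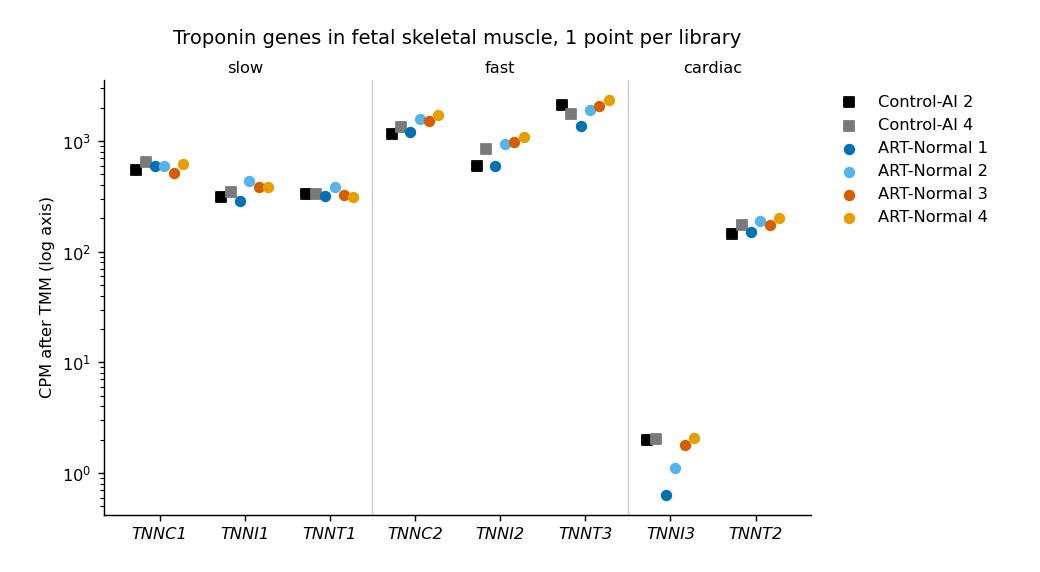
CPM after TMM on a log axis for each troponin gene in the 6 muscle libraries, with squares for Control-AI and circles for ART-Normal fetuses, grouped as slow, fast and cardiac genes. TNNI3 sits at 0.632 to 2.08 CPM while the other 7 genes sit above 100, and the control squares and ART-Normal circles overlap for every gene.

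Whether conception by ART goes with a change in troponin expression was tested in muscle over 11695 genes with edgeR's quasi-likelihood test. None of the 7 troponin genes tested passed an adjusted p of 0.05, and TNNI3 was below the filter. Over all genes tested, 0.00855% passed, which is 1 gene, ANKRD1, a stress-responsive muscle ankyrin repeat protein named here after its value was seen. An unadjusted p under 0.05 was found for 1075 genes, or 9.19%, and for 0 troponin genes. Groups did not overlap for 16% of the genes tested and for 0 of the 8 troponin genes.

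The largest estimates belonged to the fast genes TNNI2 and TNNC2, and none was distinguishable from 0. TNNI2 had a log2 fold change of 0.32 (SE 0.24, 95% interval -0.22 to 0.86, adjusted p = 0.742 from edgeR), positive meaning higher in ART-Normal. The log2 fold change of TNNC2 was 0.27 (SE 0.18, interval -0.12 to 0.67, adjusted p = 0.694 from edgeR). Estimates for TNNT3 and TNNT1 were both 0.01, with intervals of -0.47 to 0.48 and -0.30 to 0.33. TNNC1 was estimated at -0.04 (interval -0.37 to 0.29), TNNI1 at 0.18 (-0.22 to 0.58) and TNNT2 at 0.16 (-0.18 to 0.50). As a description, the median of the 3 fast genes was 0.27 and that of the 3 slow genes 0.01, against 0.00069 over all genes tested. On a linear scale these intervals allow TNNC1 to be between 0.776 and 1.22 times, and TNNI2 between 0.858 and 1.81 times, its control level.

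Leaving out a fetus moved the estimates but called no troponin gene. Without Control-AI 2, TNNI2 was at 0.07 in place of 0.32 and TNNC2 at 0.16 in place of 0.27, while TNNT3 was at 0.14 and TNNC1 at -0.16. Without Control-AI 4, TNNI2 was at 0.61. That fit holds 1 control fetus, so only its estimate is given here. TNNT1 and TNNT3 changed sign when library size alone or upper quartile scaling was used, at -0.0024 and -0.011 with library size alone.

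**Figure D3:**
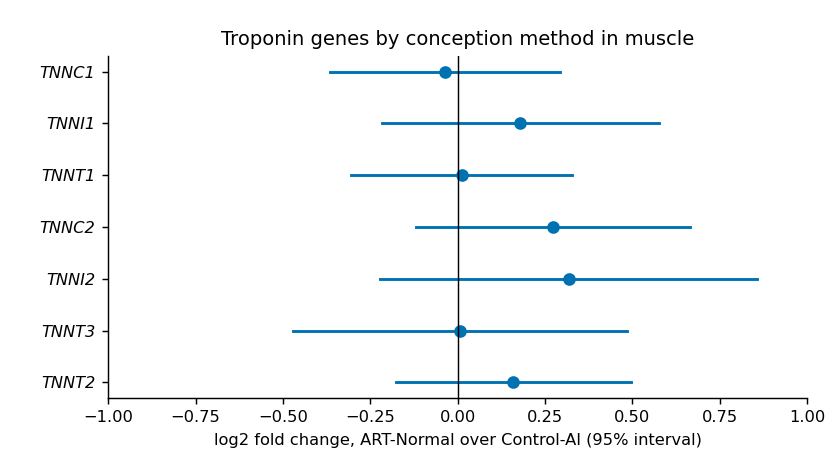
Log2 fold change from Control-AI to ART-Normal in muscle with its 95% interval from edgeR for the 7 troponin genes tested, ordered as slow, fast and cardiac. Every interval includes 0, and the widest belongs to TNNI2, from -0.22 to 0.86.

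A ratio of 2 genes within a library needs no scaling between libraries, so the balance of slow and fast isoforms was compared fetus by fetus. In troponin C reads the slow share was 32.2% and 32.4% for the controls and 32.9%, 27.0%, 25.3% and 26.8% for ART-Normal 1 to 4. ART-Normal 2, 3 and 4 were below both controls and ART-Normal 1 was above them. In troponin I reads the slow share was 34.4% and 28.8% for the controls and 32.3%, 31.9%, 28.1% and 25.9% for ART-Normal 1 to 4. The slow share of troponin T reads was 13.7% and 16.0% for the controls and 19.0%, 16.8%, 13.4% and 11.7% for ART-Normal 1 to 4. These are shares of reads, not corrected for transcript length, so they compare fetuses rather than amounts of protein. ART-Normal 1 had the highest slow share in troponin C and T, and ART-Normal 4 the lowest in troponin I and T.

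None of the 3 slow to fast balances could be told apart between the groups. On the log2 scale TNNC1 over TNNC2 was -1.37 ± 0.23 (SD, n = 4) in ART-Normal and -1.07 and -1.06 in Control-AI 2 and 4, a difference of -0.30 (exact two-sided permutation p = 0.4). TNNI1 over TNNI2 differed by -0.14 and TNNT1 over TNNT3 by 0.02, with exact permutation p of 0.533 and 0.933. With 6 fetuses split 4 and 2 in 15 ways, the smallest p possible is 0.133, so no difference could pass 0.05 in this design. Without Control-AI 2, TNNI1 over TNNI2 was at 0.045 and TNNT1 over TNNT3 at -0.11, both with the opposite sign.

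The cardiac balances showed 1 separation. TNNT2 made up 5.63% and 7.79% of the troponin T reads for the controls and 8.22%, 7.68%, 6.69% and 6.98% for ART-Normal 1 to 4, and the groups overlapped. TNNI3, set against TNNI1 plus TNNI2, was at 0.218% and 0.170% for the controls and at 0.0718%, 0.0813%, 0.130% and 0.140% for ART-Normal 1 to 4. Both controls were above all 4 ART-Normal fetuses, with a log2 difference of -0.91 and an exact permutation p of 0.133, the smallest this design allows, adjusted to 0.667 over the 5 balances. Only 15 to 48 TNNI3 counts stand behind each of these shares. TNNI3 alone overlapped between the groups, and without a filter its log2 fold change was -0.52 (adjusted p = 0.822 from edgeR).

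**Figure D4:**
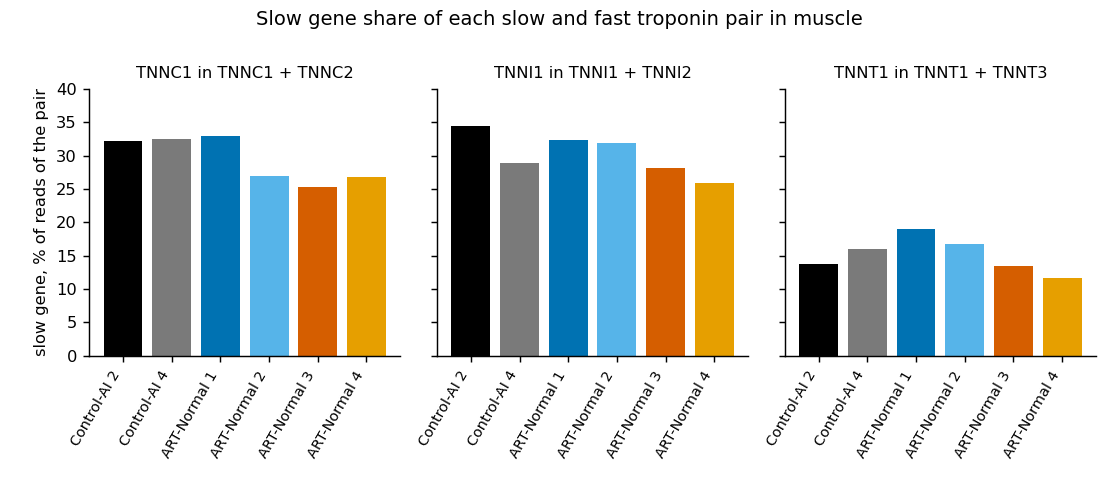
Share of the slow gene, in percent, among the reads of each slow and fast pair in the 6 muscle libraries, with 1 bar per fetus and axes starting at 0. The slow share runs from 25.3% to 32.9% for troponin C, 25.9% to 34.4% for troponin I and 11.7% to 19.0% for troponin T, and the controls fall within the ART-Normal range except for Control-AI 2 in troponin I.

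Liver held almost no troponin reads. The 8 genes together had 48 to 179 counts per liver library, against 65670 to 131827 per muscle library. By edgeR's quasi-likelihood test all 7 genes tested were higher in muscle than in liver, in 6 of 6 fetuses each. Of the 12923 genes tested over the 12 libraries, 39.9% were called higher in muscle. The 7 troponin genes passed the filter through muscle alone, so the direction of their calls was fixed in advance. Pooled over fetuses, the muscle level per library size exceeded that of liver by 640-fold for TNNT3 (95% interval 586 to 702, counting error only), 688-fold for TNNI1 (556 to 863) and 1028-fold for TNNI2 (868 to 1227). It was 1479-fold for TNNT2 (947 to 2456), 5314-fold for TNNC1 (3362 to 8966) and 15419-fold for TNNC2 (9348 to 27550). TNNT1 and TNNI3 had 1 liver count each over all fetuses, which gives ratios of 53960 (9684 to 2131364) and 256 (45.3 to 10149). The interval of TNNI3 overlaps those of all other genes, and of the other neighbours in this order TNNT3 and TNNI1, TNNI2 and TNNT2, and TNNC2 and TNNT1 have intervals that overlap. In bulk tissue, fewer cells of a type and less RNA per cell cannot be told apart.

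The liver reads came from 3 genes in all fetuses and from the others in some. TNNT3 had 105 and 72 liver counts for Control-AI 2 and 4 and 26, 117, 81 and 79 in ART-Normal 1 to 4. TNNI2 had 29 and 22 counts for the controls and 19, 13, 19 and 32 for ART-Normal 1 to 4. TNNI1 had 13 and 18 counts for the controls and 3, 4, 12 and 34 for ART-Normal 1 to 4. These 3 genes thus had liver reads in 6 of 6 fetuses, and 2 of them are the fast pair of chromosome 29. Within a fetus, with CPM after TMM in each tissue, muscle exceeded liver by 291-fold to 1199-fold for TNNT3, 298-fold to 3417-fold for TNNI2 and 348-fold to 5201-fold for TNNI1, each lowest in Control-AI 2. The spread between fetuses was thus wider than the counting intervals of the pooled ratios.

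The remaining genes were at 0 in at least 3 liver libraries. TNNC1 had 13 liver counts in Control-AI 2, 1 in ART-Normal 3 and 4 in ART-Normal 4, and TNNC2 had 9, 4 and 2 in the same fetuses. TNNT2 had 9, 5 and 5 counts there, and all 3 genes were at 0 in Control-AI 4, ART-Normal 1 and ART-Normal 2. A count of 0 allows up to 0.0692 to 0.133 CPM in those libraries, so TNNC2 was at least 9207-fold higher in muscle in each of these 3 fetuses and TNNC1 at least 4514-fold. TNNT1 had 1 liver count, in Control-AI 2, and TNNI3 had 1, in Control-AI 4. In the 5 fetuses with no TNNT1 count in liver, TNNT1 was at least 2435-fold higher in muscle.

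Control-AI 2 held much of the TNNC1 and TNNC2 signal in liver. Its 13 TNNC1 and 9 TNNC2 counts were 13 of 18 and 9 of 15 over all livers. The summed CPM of 6 skeletal muscle markers was 16.9 in its liver and 4.88 to 6.41 in the other 5, and skeletal actin ACTA1 was at 2.56 CPM there and at 0 to 0.0631 elsewhere. The sum of the hepatocyte markers was higher in both of its libraries, but not every gene followed. APOA1 and TTR in its liver, and APOA1 in its muscle, lay within the range of the other fetuses. The rest of the list was highest in Control-AI 2 in each tissue. The summed level of the hepatocyte markers was 229 CPM in its muscle, against 24.8 to 48.6 in the other fetuses. In its liver it was 179879 CPM, against 22332 to 44124. The part of these markers in the result was not tested. Without Control-AI 2, the pooled ratio of muscle to liver rose to 17056-fold for TNNC1, 34867-fold for TNNC2 and 2533-fold for TNNT2, but was 716-fold for TNNT3, 1203-fold for TNNI2 and 731-fold for TNNI1. TNNT1 then had no liver count in 5 fetuses and was at least 15903-fold higher in muscle, from 3 counts over the group.

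The make-up of the troponin reads differed between the tissues, a comparison chosen after the values were seen and given without a test. TNNT3 took 30.2% to 40.4% of the troponin reads in muscle and 50.6% to 87.3% in liver, and its share was higher in liver in 6 of 6 fetuses. TNNC2 took 22.3% to 26.8% in muscle and 0% to 5.03% in liver, lower in 6 of 6. TNNT1 took 4.67% to 7.09% in muscle and 0% to 0.559% in liver, also lower in 6 of 6. Had each liver held troponin reads in the ratio to TNNT3 of its own muscle, the 6 livers together would have held 350 counts of TNNC2, 142 of TNNC1 and 83.0 of TNNT1, where 15, 18 and 1 were counted. For TNNI2 and TNNT2 the same sums are 208 and 42.5, where 134 and 19 were counted. For TNNI1 the sum is 89.8 and 84 were counted, but single fetuses lay on either side, with 4 counts against 26.8 in ART-Normal 2 and 34 against 12.9 in ART-Normal 4. These sums depend on TNNT3 as the reference. Among genes with more than 1 liver count it had the lowest pooled ratio of muscle to liver, at 640-fold. Sums above the counts follow from this choice, and another reference gene would give other sums. Liver shares rest on 48 to 179 reads per library and carry counting error of that size.

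**Figure D5:**
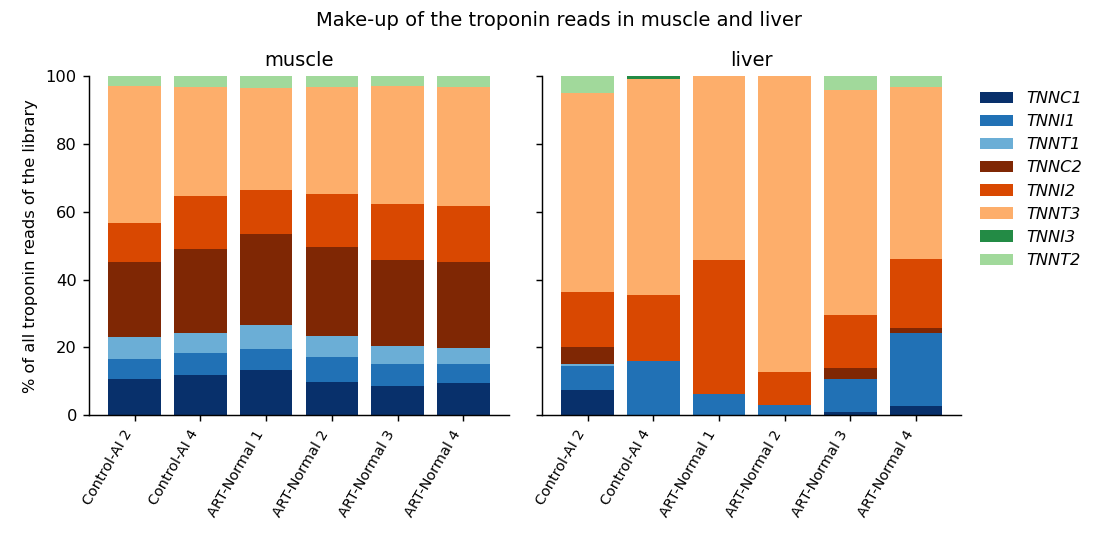
Make-up of the troponin reads of each library in percent, for muscle on the left and liver on the right, with slow genes in blue, fast genes in brown to orange and cardiac genes in green. TNNT3 fills 30.2% to 40.4% of each muscle bar and 50.6% to 87.3% of each liver bar, where TNNC2 falls to 0% to 5.03%.

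Conception method could not be tested for these genes in liver with the filter in place. None of the 8 reached 5 CPM in all libraries of a group, and 0% of the 11304 genes tested in liver passed, with 948, or 8.39%, at an unadjusted p under 0.05 by edgeR's quasi-likelihood test. Without a filter the log2 fold change of TNNT3 was -1.09 (adjusted p = 0.520 from edgeR) and that of TNNI2 was -0.98 (adjusted p = 0.676 from edgeR). TNNT3 was at 7.26 and 2.93 CPM for Control-AI 2 and 4 and at 1.14 to 3.10 for ART-Normal livers, so the groups overlapped. Both estimates rested on Control-AI 2, since without it they were -0.34 for TNNT3 and -0.34 for TNNI2. Without Control-AI 4 they were -1.60 and -1.45, fits added after the data were seen. TNNT3 then also passed the filter, with -1.64. Each fit without 1 of the controls holds 1 control fetus, so only its estimates are given here.

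Whether the effect of conception differs between the tissues was tested as an interaction, where 0% of 12923 genes passed and 717, or 5.55%, had an unadjusted p under 0.05 in edgeR's quasi-likelihood test. The interaction of TNNC1, the change in muscle minus that in liver, was 2.96 on the log2 scale (SE 1.23, adjusted p = 0.854 from edgeR). Its value rested on Control-AI 2, whose liver held most TNNC1 reads. Without that fetus the only control was Control-AI 4, whose liver had 0 counts of TNNC1, TNNC2 and TNNT2. The interaction of TNNC1 was then -3.40, and TNNC2 and TNNT2 also turned negative, at -3.32 and -4.15. These values rest on the 0 counts of 1 control liver. With the likelihood ratio test of edgeR, which the study used, TNNC1 passed with an adjusted p of 0.0180. That test called 55 genes positive and 43 negative among the 12923. The fit without Control-AI 4 holds 1 control fetus, Control-AI 2, so no p is given for it.

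Other genes of the contractile apparatus were read beside the troponins in muscle. Of 14 genes for thin filament partners, 13 were tested and 0 passed between ART-Normal and Control-AI. Their median log2 fold change was -0.01 against 0.00069 over all genes, with 6 positive and 7 negative. An unadjusted p under 0.05 (edgeR) was found for 4 of these 13, against 9.19% of all genes tested. The most abundant were ACTC1, cardiac actin and the early actin of skeletal muscle, at 4071 and 3072 CPM in the controls and 2379 to 3148 in ART-Normal, and the giant filament ruler NEB, at 3009 and 3130 CPM against 2746 to 3778. The tropomyosin gene TPM2 was at 2350 and 2030 CPM in the controls and 1754 to 2591 in ART-Normal, and the NEB-binding KLHL41 at 2135 and 1884 against 1547 to 2145. KLHL41, NEB, TPM2 and ACTC1 were lowest in ART-Normal 1, which also had the lowest TNNI1, TNNI2, TNNI3 and TNNT3.

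Fibre type genes outside the troponins held no call either. Of 10 slow fibre genes, 10 were tested and 0 passed, and of 10 fast fibre genes 9 were tested and 0 passed. Their median log2 fold changes were -0.03 and -0.14. An unadjusted p under 0.05 (edgeR) was found for 2 slow and 2 fast fibre genes, against 9.19% of all genes tested. The slow myosin heavy chain MYH7 was at 1570 and 1683 CPM in the controls and 1134 to 1651 in ART-Normal, and the slow light chain MYL2 at 1378 and 1556 against 1218 to 1639. The fast light chains MYLPF and MYL1 were at 1566 and 1594 CPM and at 1380 and 1129 CPM in the controls, and at 1312 to 2192 and 855 to 1130 in ART-Normal. In MYL1 ART-Normal 2 alone reached the lower control, while in MYLPF the controls lay inside the ART-Normal range.

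Of the developmental sarcomere genes, the embryonic and perinatal myosins were the most abundant. Embryonic myosin MYH3 was at 8499 and 7752 CPM in the controls and 5871 to 8658 in ART-Normal, and perinatal myosin MYH8 at 5495 and 5725 against 4596 to 8833. Of the 9 genes listed, 8 were tested and 0 passed, and MYMX was not matched. An unadjusted p under 0.05 (edgeR) was found for 1 of the 8, against 9.19% of all genes tested. Among 19 regulators of muscle and fibre type genes, 19 were tested and 0 passed. Of these, 4 had an unadjusted p under 0.05 (edgeR), beside the same 9.19% over all genes. The myogenic factors MYOG and MYOD1 were at 137 to 181 CPM and 48.0 to 91.1 CPM over the 6 libraries. Between the tissues, 13 of 13 thin filament genes and 8 of 8 developmental genes tested were higher in muscle. So were 10 of 10 slow and 9 of 9 fast fibre genes. Only 6 thin filament genes, 1 slow fibre gene and 1 developmental gene also passed the filter in liver. The others entered through muscle alone, which fixed their direction in advance. Of the 19 regulators 17 were higher and 2 lower (40.2% of all genes tested were lower), SOX6, known also from erythroid cells, and PROX1, known also from hepatocytes. SOX6 was at 102 to 225 CPM in muscle and 284 to 531 in liver, and PROX1 at 48.4 to 62.6 and 118 to 142. The lists share ACTC1, ACTA1, MYH3, MYOD1 and MYOG with each other or with the markers.

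The label of the tissue was checked by markers. All 6 skeletal muscle markers were higher in muscle than in liver, with a summed level of 8522 to 13448 CPM in muscle and 4.88 to 16.9 in liver. All 6 hepatocyte markers were lower, at 24.8 to 229 CPM in muscle and 22332 to 179879 in liver. Over all genes tested, 39.9% were called higher and 40.2% lower in muscle. Of the skeletal muscle markers 0 passed the filter in liver, and 2 of 6 hepatocyte markers passed it in muscle. The direction of the other calls was thus fixed in advance, and the sums are given as a description. Heart markers were looked for beside TNNT2 and TNNI3. The natriuretic peptide gene NPPB was at 0 in all 6 muscle libraries, and NPPA was at 0 in 5 of 6. The cardiac factor NKX2-5 was at 0 to 0.0912 CPM and the factor TBX5 at 0.588 to 2.99 CPM. The atrial light chain MYL7 was at 156 to 301 CPM, MYH6 at 13.1 to 42.2 and MYBPC3 at 5.09 to 11.7. RYR2 was at 10.4 to 34.7 CPM in muscle and at 28.9 to 45.3 in liver. Smooth muscle markers summed to 306 to 469 CPM, fibroblast markers to 21845 to 28002 CPM and erythroid markers to 98.3 to 680 CPM in muscle. Between conception groups 0 genes of any marker list passed. Smooth muscle, fibroblast and hepatocyte markers summed higher in both controls than in all 4 ART-Normal fetuses. The sums were 386 and 469 against 306 to 369 CPM, 27271 and 28002 against 21845 to 25433 CPM, and 48.6 and 229 against 24.8 to 47.5 CPM. Groups also did not overlap for 16% of single genes tested in muscle. The part of these markers in the troponin values was not tested.

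The genes whose pattern over the 6 muscle libraries was most like that of TNNT1 and of TNNT2 were found by Pearson's r of log2 CPM among the other 11694 genes, as a description with no test. For slow TNNT1 they were RBM24 (r = 0.98), a muscle RNA-binding protein gene, DCLRE1A (0.98) and GNA13 (0.98). For TNNT2 they were TUBA4A (0.99), an alpha tubulin gene, ALAS1 (0.98) and CDIPT (0.97). With 6 libraries high values are common, and 35 and 60 genes had an r over 0.9 with TNNT1 and TNNT2.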

How the data were processed

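The authors deposited raw read counts per gene for liver and for muscle, with no normalization. The submitters' processing notes name HISAT2 2.1.0, featureCounts and ARS-UCD1.2, and the labels describe strand-specific poly(A) libraries; how strand was set in counting is not given in the sources used here. Each of the 21048 listed lengths equals the gene span. Of 13 count columns per table, 6 were matched to the samples and 7 per table, 14 in all, were not used here. The authors' own comparison tables were not used, and no kidney counts were used.

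Counts were tested with edgeR 4.0.16 in R 4.3.3 (quasi-likelihood test, TMM, two-sided, no covariates) on genes that reached 5 CPM in every library of 1 group, and p-values were adjusted by Benjamini-Hochberg over all of them, with a threshold of 0.05. Standard errors and 95% intervals follow from the F statistic of each fold change. Muscle and liver were joined in 1 fit for the tissue comparison and the interaction. Isoform balances used counts plus 0.5 and exact permutation of 6 fetuses in SciPy 1.17.1. Pooled tissue ratios used library sizes, with exact binomial intervals, and a count of 0 was taken as up to 3 counts. Intervals cover counting error only. The procedure was tested on simulated data.

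Both tissues come from each fetus, so they are paired by animal. For each fetus, deviations of its 2 libraries from their group means were correlated across genes. The r was 0.51 for the controls and 0.30, 0.06, 0.09 and 0.43 for ART-Normal 1 to 4. The 2 controls share 1 value by construction, since their deviations from a mean of 2 mirror each other. Same-numbered ART-Normal and Control-AI fetuses are different animals. All 8 members are reported. Genes of the other lists are given by counts, with values for at most the 4 most abundant in muscle or those past the threshold, chosen here as examples, and 3 genes most like each of TNNT1 and TNNT2; those most like TNNT3 are not reported here. The members and lists were chosen with earlier results of these data known. Alternatives were RLE, upper quartile and library size scaling, no filter, a minimum of 10 counts in each library, the likelihood ratio test, DESeq2 1.42.0, ART-Normal 1 to 3 only, a replicate block, and leaving out each fetus, which for TNNT3 and TNNI2 in liver was also done without a filter, an alternative chosen after seeing the data.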

Additional observations from a re-analysis of the deposited data

Results flagged for a closer look

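TNNT1 in muscle of ART-Normal 2 lay far from the other ART-Normal libraries, at 385 CPM against 312, 320 and 324. The gap to the nearest of them was 0.842 of the whole range of the 4 values, above Dixon's 95% critical value for 4 samples. Of 19 groups of 4 values examined, 1 was set apart in this way, and chance alone does so for about 1 in 20. The library with the high TNNT1 also had the highest TNNI1 of the 6, at 438 CPM. Without ART-Normal 2 the log2 fold change of TNNT1 between the groups was -0.06 in place of 0.01.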

How the results depend on the processing

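Under every alternative that gave them a value, no troponin gene was called between conception groups within muscle or within liver. All tested were called between the tissues under every such alternative. The main filter admitted them through muscle alone. Estimates near 0 changed sign: TNNC1 in muscle was 0.028 with the replicate block, TNNT1 was -0.019 with upper quartile scaling and -0.0024 with library size alone, and TNNT3 was -0.0026 with RLE, -0.024 with upper quartile scaling, -0.011 with library size alone, -0.0026 with DESeq2 and -0.10 with ART-Normal 1 to 3 only. Leaving out 1 fetus at a time gave -0.16 to 0.093 for TNNC1, -0.063 to 0.044 for TNNT1 and -0.11 to 0.14 for TNNT3. In the interaction, where TNNC1 passed with the likelihood ratio test, it gave -3.40 to 4.44 for TNNC1, -3.32 to 3.95 for TNNC2 and -4.15 to 3.19 for TNNT2. The negative ends came without Control-AI 2, where Control-AI 4 was the only control and had 0 liver counts of these genes. The balances ranged from -0.33 to 0.045 for TNNI1 over TNNI2, -0.12 to 0.16 for TNNT1 over TNNT3 and -0.085 to 0.42 for TNNT2 over the slow and fast sum, and the share of TNNI3 in liver minus muscle from -0.026 to 0.15 percentage points. The cause was not tested.

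Counts of called genes moved. In muscle, 51 genes were higher and 69 lower with the likelihood ratio test, 64 and 42 with DESeq2, 41 and 49 with the replicate block and 0 lower with ART-Normal 1 to 3 only, against 0 and 1. Leaving out 1 fetus gave 0 to 674 higher and 0 to 653 lower in muscle, 0 to 348 and 0 to 482 in liver, and 0 to 114 and 0 to 118 in the interaction, with the highest of each without Control-AI 4. In liver, against 0 and 0, library size alone gave 2 and 6, the likelihood ratio test 24 and 65, DESeq2 25 and 31, ART-Normal 1 to 3 only 2 higher, and the replicate block 1 and 5. In the interaction, against 0 and 0, the likelihood ratio test gave 55 and 43 and DESeq2 25 and 12. Library size alone shifted the median log2 fold change of all genes to 0.21 in liver and 0.17 between tissues. The replicate number pairs different fetuses between conception groups, with correlations of -0.0023 and -0.16 in muscle, so the block there shares only a number; between tissues it marks the same fetus and changed no call of a troponin gene. Depth limits TNNI3 in muscle and all 8 genes in liver.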
